A study of Homo sapiens with 4 samples.

Results

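Expression of the CDK inhibitor genes was described on 4 arrays of DU145, an established cell line from human prostate cancer that does not need androgen to grow. Members were the probe sets whose gene symbol in the platform annotation is CDKN1A, CDKN1B, CDKN1C, CDKN2A, CDKN2B, CDKN2C or CDKN2D. Of these 7 genes 6 matched, each through 1 probe set, among 17687 named genes. CDKN2C (chromosome 1, 50960745 to 50974634 in GRCh38.p14) had no match by symbol or Entrez identifier and was not analysed here. The conditions, 48 h each, were vehicle, No.10-3 (5 µM), a low dose of C-30 (0.5 µM) and a high dose of C-30 (2 µM), and the labels call both compounds PSF inhibitors, PSF being the protein made from SFPQ. Medium and serum were the same throughout, and no label names a further allele, vector or agent. Each condition has 1 array, so no value has an error or a test, and "higher" and "lower" describe the difference between 2 arrays. The 3 comparisons with vehicle share its array.

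Cyclin-dependent kinases drive the cell cycle once a cyclin is bound, and CDK inhibitors hold them back. The 3 CIP/KIP proteins, p21 (CDKN1A), p27 (CDKN1B) and p57 (CDKN1C), bind cyclin-kinase complexes of several kinds, chiefly those of CDK2. The 4 INK4 proteins, p16 (CDKN2A), p15 (CDKN2B), p18 (CDKN2C) and p19 (CDKN2D), bind CDK4 and CDK6 and act through RB, the product of RB1. CDKN2A also encodes ARF, which stabilises p53, from another first exon. DU145 is known to carry mutant p53 and to lack working RB. p21 is best known as a p53 target but is also induced without p53, whereas p27 is known to be governed largely by protein turnover, which arrays do not read.

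Signals are log2 values made by the authors with RMA. Values of different genes were not set against each other, because each probe set has its own response. A signal is called within background when it lay under the level that 95% of the 612 negative control probe sets on its array did not exceed, which was 7.32 with vehicle, 7.06 with No.10-3, 7.11 with low-dose C-30 and 7.15 with high-dose C-30. A comparison took in each gene with at least 1 of its 2 signals at 5.56 (the median named probe set), a limit called the floor. Genes whose log2 values differed by 1 or more are said to have passed 2-fold, a fold on the scale of these values. All 6 genes passed that floor in each comparison. CDKN1A, CDKN1B and CDKN2A were above background on all 4 arrays, and CDKN1C, CDKN2B and CDKN2D were within background on all 4. The epithelial markers KRT8, KRT18 and EPCAM were above background on all 4 arrays, between 7.33 and 13.61. EPCAM with vehicle was barely so, at 7.33 against a background level of 7.32. CDH1 was within background, as were KLK3, both stromal markers and both leukocyte markers on every array. The log2 values of the 4 epithelial markers, CDH1 included, added up to 36.00, 37.86, 37.04 and 34.66 in the order vehicle, No.10-3, low-dose C-30 and high-dose C-30. That order is kept below wherever 4 values follow each other. In the same order the sum of log2 values was 8.08, 8.32, 8.66 and 8.04 over the 2 stromal markers and 10.21, 8.93, 9.52 and 10.44 over the 2 leukocyte markers. Since all values in these 2 sums were within background, their differences are inexact.

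Promoter windows are shown for the 2 members whose signal was highest with high-dose C-30 among those above background, CDKN1A and CDKN1B, and for both starts of CDKN2A, whose single probe set is annotated to transcripts from either start. The windows come from RefSeq on GRCh38.p14, run 5′ to 3′ on the gene's strand from 250 bases before to 50 bases after a start, and carry capitals at GC boxes (GGGCGG, the core bound by SP1 family factors) and CCAAT boxes (CCAAT, bound by NF-Y), on both strands.
CDKN1A, chr6:36678464-36678763, plus strand: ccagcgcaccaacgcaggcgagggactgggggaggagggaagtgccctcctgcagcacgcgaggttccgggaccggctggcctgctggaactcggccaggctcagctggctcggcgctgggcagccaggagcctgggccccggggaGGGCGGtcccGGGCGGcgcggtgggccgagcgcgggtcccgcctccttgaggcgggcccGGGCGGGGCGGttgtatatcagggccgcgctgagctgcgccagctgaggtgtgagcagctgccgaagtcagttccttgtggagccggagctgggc
CDKN1B, chr12:12717118-12717417, plus strand: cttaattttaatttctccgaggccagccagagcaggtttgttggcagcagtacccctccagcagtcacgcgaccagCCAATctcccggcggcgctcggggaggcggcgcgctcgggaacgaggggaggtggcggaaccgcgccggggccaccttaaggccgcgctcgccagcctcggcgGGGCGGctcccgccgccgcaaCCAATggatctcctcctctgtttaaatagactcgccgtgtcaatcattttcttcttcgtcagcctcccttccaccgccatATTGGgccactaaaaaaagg
CDKN2A, start of the p16 transcript, chr9:21974808-21975107, minus strand: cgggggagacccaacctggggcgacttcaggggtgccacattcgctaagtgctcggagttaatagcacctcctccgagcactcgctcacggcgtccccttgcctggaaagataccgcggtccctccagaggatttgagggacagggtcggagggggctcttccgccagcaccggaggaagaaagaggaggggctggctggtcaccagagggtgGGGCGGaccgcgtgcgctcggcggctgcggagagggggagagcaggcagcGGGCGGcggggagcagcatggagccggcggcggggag
CDKN2A, start of the ARF transcript, chr9:21995275-21995574, minus strand: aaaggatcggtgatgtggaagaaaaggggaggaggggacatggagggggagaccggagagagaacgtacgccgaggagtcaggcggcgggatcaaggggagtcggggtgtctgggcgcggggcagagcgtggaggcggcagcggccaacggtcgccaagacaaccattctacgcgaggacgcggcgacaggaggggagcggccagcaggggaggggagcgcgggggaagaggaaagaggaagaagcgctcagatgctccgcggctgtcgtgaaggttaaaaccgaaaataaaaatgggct

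The CDKN1A window held 4 GC boxes and no CCAAT box, and the last 2 GC boxes, which begin 45 and 40 bases before the start, overlap by a base. At least 4 GC boxes are found in 9.04% of the 34796 distinct windows of this length in the table. The CDKN1B window held 1 GC box and 3 CCAAT boxes, which begin 174 and 50 bases before the start and at position 31 after it, the last on the opposite strand. At least 3 CCAAT boxes are found in 3.25% of windows. The p16 window of CDKN2A held 2 GC boxes and no CCAAT box, and the ARF window held neither. At least 1 GC box is found in 44.9% of windows and at least 1 CCAAT box in 34.6%. The FOXO core GTAAACA (3.42% of windows), the EGR1 core GCGNGGGCG (9.43%) and the p53 half-site (6.65%) had no match in any of the 4 windows. The searches covered both strands, and an EGR1 core can share bases with a GC box. For these genes only the windows shown were searched, and sequence farther from a start was not. The lack of a p53 half-site or FOXO core here therefore does not show that CDKN1A or CDKN1B has no such site elsewhere. The guanine and cytosine content was 74.3% for CDKN1A, 62.3% for CDKN1B, 69.0% for p16 and 63.3% for ARF, against a median of 58.7%.

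CDKN1B was the only one of the 6 genes past 2-fold in any comparison, and it was higher with C-30. The gene (chromosome 12, 12717368 to 12722369) encodes p27, which holds cyclin E and CDK2 inactive in resting cells. Its signal was 7.87 with vehicle, 7.93 with No.10-3, 8.53 with low-dose C-30 and 9.09 with high-dose C-30. Vehicle and No.10-3 were close together, and the C-30 arrays were higher in the order of dose. The log2 difference from vehicle was 0.66 (1.58-fold) with low-dose C-30 and 1.22 (2.32-fold) with high-dose C-30. The higher dose exceeded the lower by 0.56. With No.10-3 the difference was 0.06, which became -0.04 once arrays were centred on their own median. Among 9319 genes past the floor with high-dose C-30, CDKN1B ranked 205 from the highest, and 491 genes differed by more in either direction. In bulk RNA, fewer cells of a type and less RNA per cell cannot be told apart, and this holds for each gene below.

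**Figure D1:**
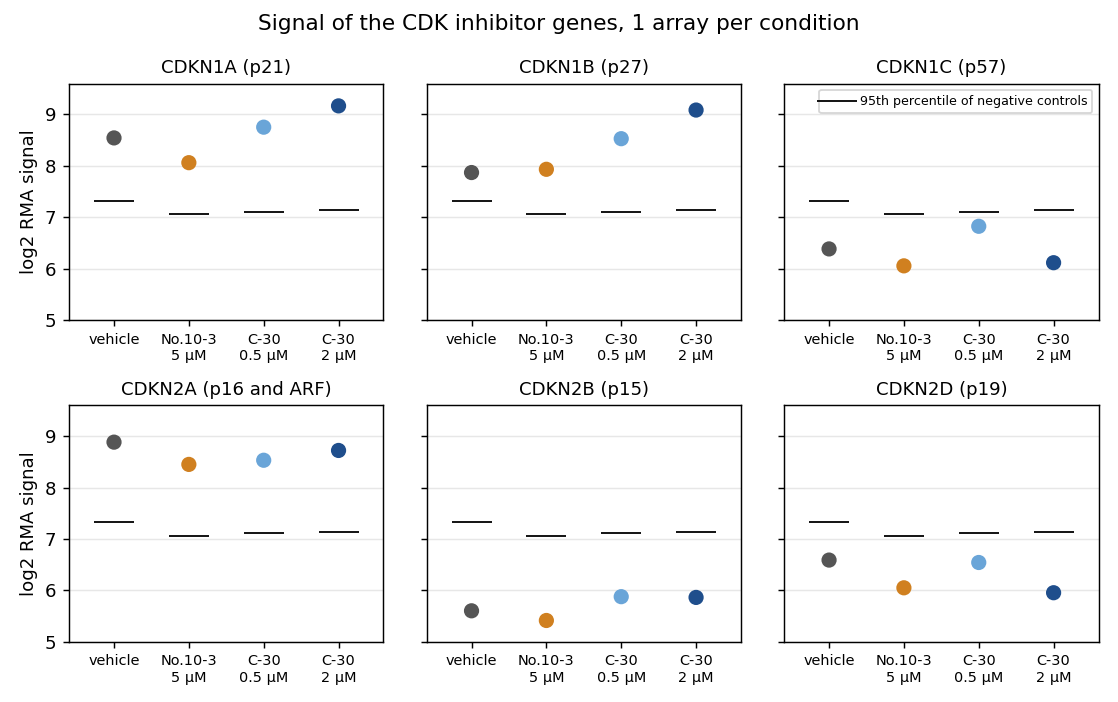
Log2 RMA signal of the 6 measured CDK inhibitor genes on the 4 arrays, 1 point per array, with a dash at the background level of that array. CDKN1B climbs from 7.87 with vehicle to 9.09 with high-dose C-30, and CDKN1C, CDKN2B and CDKN2D lie under the dash on every array.

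CDKN1A was lower with No.10-3 and higher with C-30 than with vehicle, without passing 2-fold. The gene (chromosome 6, 36676463 to 36687332) encodes p21, the inhibitor that stops CDK2 after DNA damage. Its signal was 8.54 with vehicle, 8.06 with No.10-3, 8.75 with low-dose C-30 and 9.17 with high-dose C-30. The lowest array was No.10-3 and the highest high-dose C-30, a range of 1.11 between the compounds' arrays. The differences from vehicle were -0.48 with No.10-3, 0.21 with low-dose C-30 and 0.62 (1.54-fold) with high-dose C-30, and the higher dose of C-30 exceeded the lower by 0.41. With high-dose C-30 it ranked 1292 from the highest of 9319 genes, and with No.10-3 it ranked 1126 from the lowest of 9219. The doses of the compounds differ, so their values stand side by side and were not compared further.

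CDKN1C (chromosome 11, 2883218 to 2885775) encodes p57, an imprinted inhibitor active in development. Its signal was 6.38 with vehicle, 6.05 with No.10-3, 6.82 with low-dose C-30 and 6.12 with high-dose C-30. The value at the lower dose of C-30 was the highest of the 4 and the doses did not form an order. All 4 values were within background, so the difference of -0.71 between the C-30 doses, the largest decrease of any member, is inexact.

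Of the INK4 genes, CDKN2A alone was above background. It lies on chromosome 9, 21967752 to 21995324. Its signal was 8.88 with vehicle, 8.45 with No.10-3, 8.53 with low-dose C-30 and 8.72 with high-dose C-30. Vehicle was the highest array, and the differences of -0.43, -0.35 and -0.16 came to at most 1.35-fold. The probe set does not tell p16 from ARF, whose start sites are both shown above. CDKN2B, the neighbour that encodes p15, begins its span 7578 bases beyond the end of CDKN2A and extends from 22002903 to 22009313. Its signal was 5.60, 5.41, 5.88 and 5.86, within background throughout. CDKN2D (chromosome 19, 10566460 to 10568979) encodes p19, whose transcript is known to vary through the cell cycle. Its signal was 6.59 with vehicle, 6.05 with No.10-3, 6.54 with low-dose C-30 and 5.95 with high-dose C-30. Vehicle and the lower dose of C-30 were close, and the other arrays were lower by 0.54 and 0.64, all within background.

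Across the family, counts past 2-fold were small and near the background of all genes. With No.10-3 none of 6 passed, where 5.68% of all genes past the floor did. The 6 genes had a median difference of -0.38, against 0.05 over all genes, and 5 of 6 were lower, while 54.0% of all genes were higher. On the same array the hybridization spikes bioB, bioC, bioD and cre were lower than with vehicle by log2 differences of -0.33, -0.39, -0.41 and -0.32. The labelling spikes dap, lys, phe and thr were lower there by -0.34, -0.54, -0.28 and -0.34, and the part of both sets in these values was not tested. With low-dose C-30 none of 6 passed against 6.17% of all genes, the median was 0.24 against -0.04, and 4 of 6 were higher. Of all genes 46.9% were higher there. With high-dose C-30 1 of 6 passed against 10.8% of all genes, or 4.67% counting higher genes only. The 6 genes then had a median of 0.05 against -0.06, and 3 were higher and 3 lower. Centring arrays on the negative controls turned that median to -0.04. Between the C-30 doses none passed against 3.57%, with a median of 0.09 against -0.03. At 1.5-fold the counts were 0 of 6 with No.10-3 (23.1% of all genes), 1 of 6 at the low dose (25.6%), 3 of 6 at the high dose (33.5%) and 2 of 6 between the doses (17.8%). CDKN1B at both doses and CDKN1A at the high dose were the higher ones. The rest were lower and within background on all 4 arrays, CDKN2D at -0.64 with high-dose C-30 and CDKN1C at -0.71 and CDKN2D at -0.59 between the doses. The spikes bioB to cre differed from vehicle by -0.01 to 0.11 with low-dose C-30 and by 0.10 to 0.15 with high-dose C-30. The labelling spikes, in the order given above, stood at -0.35, -0.01, -0.21 and -0.80 with low-dose and at -0.50, -0.37, -0.42 and -0.89 with high-dose C-30, and the part of either set in the C-30 values was not tested.

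**Figure D2:**
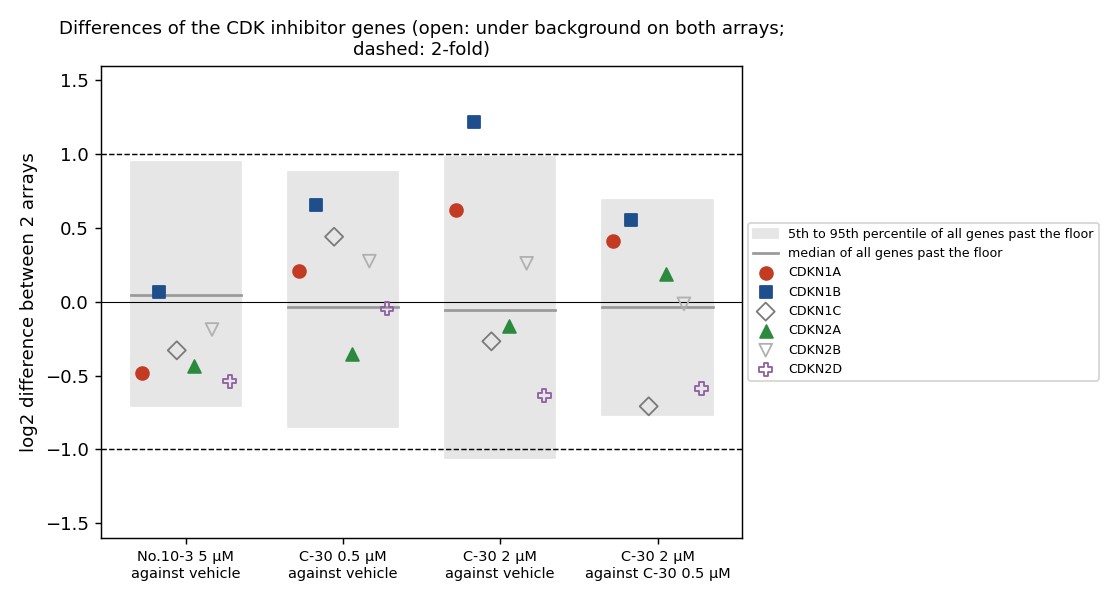
Log2 difference between 2 arrays (vertical axis) of the 6 genes in 4 comparisons, with the 5th to 95th percentile and the median of all genes past the floor in grey. Open symbols were within background on both arrays; CDKN1B at 1.22 with high-dose C-30 lies above the 95th percentile of 0.98, and the other differences lie inside the grey range.

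The genes whose profile was most like that of a member were taken as those at the smallest Euclidean distance over the 4 arrays, each profile centred on its own mean, among 6415 other genes above background on at least 1 array. This was done for CDKN1A and CDKN1B, whose range over the arrays reached 1. For CDKN1B they were NAMPT, an enzyme of NAD synthesis, at a distance of 0.08, RUFY3 at 0.09 and DNAJC2, a ribosome-associated cochaperone gene, at 0.10, where the median gene stood at 1.18. NAMPT read 8.70, 8.76, 9.32 and 9.98 over the arrays, so it too was highest with high-dose C-30. RUFY3 was above background with high-dose C-30 alone, so its place is inexact. For CDKN1A they were IFI27L1 at 0.07, NIFK at 0.10 and MRPS28, a mitochondrial ribosomal protein gene, at 0.11, with a median of 1.04. IFI27L1 read 9.59, 9.14, 9.75 and 10.15, lowest with No.10-3 like CDKN1A. MRPS28 too was above background with high-dose C-30 alone. With so many genes and only 4 arrays, a close profile can be found for many genes.

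**Figure D3:**
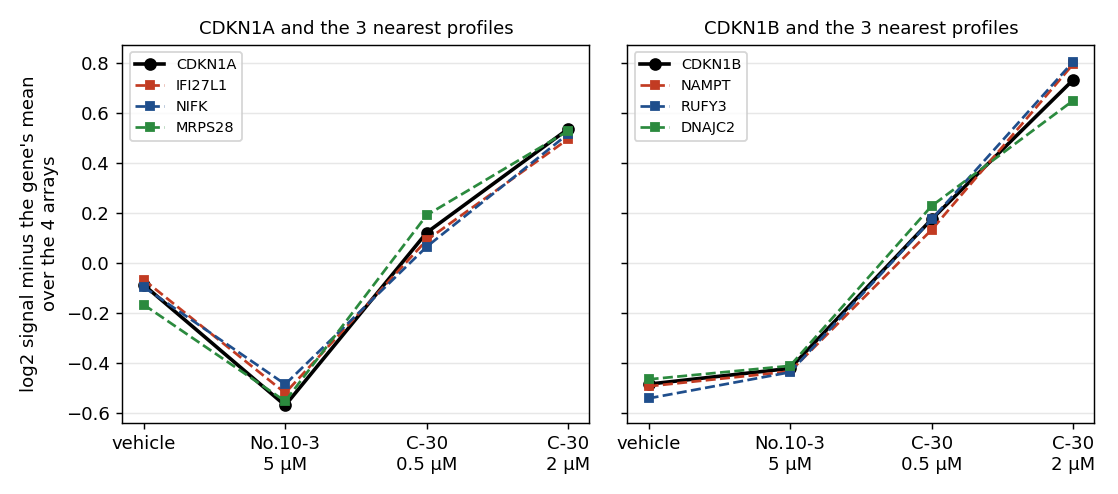
Log2 signal minus the gene's own mean over the 4 arrays, for CDKN1A and CDKN1B (black) and the 3 genes nearest to each (dashed), 1 point per array. The CDKN1A set is lowest with No.10-3, and the CDKN1B set is flat between vehicle and No.10-3 and highest with high-dose C-30.

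The genes beside the members on the chromosome were then read. GPR19, whose span ends 121 bases before that of CDKN1B, was within background on all 4 arrays, at 3.64, 3.37, 3.45 and 3.52. SRSF3, a splicing factor gene that ends 70862 bases before CDKN1A, read 9.89, 10.55, 10.67 and 11.08. It was higher than vehicle by 0.66, 0.78 and 1.19, and so differed from CDKN1A, which was lower with No.10-3. RAB44, on the other side of CDKN1A, was within background, as were KCNQ1 and SLC67A1 beside CDKN1C, DMRTA1 beside CDKN2B, C1orf185 beside CDKN2C and AP1M2 beside CDKN2D. MTAP, the methylthioadenosine phosphorylase gene next to CDKN2A, read 8.34, 7.82, 8.28 and 8.06. It was lowest with No.10-3, as CDKN2A was. KRI1 beside CDKN2D lay between 11.20 and 11.49, and FAF1 beside CDKN2C between 9.88 and 10.28.

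The cyclins and kinases that the inhibitors bind were examined next, with 7 of 10 past the floor. With high-dose C-30 their median difference was -0.75 against -0.06 over all genes. Of the 7, 6 were lower, while 46.4% of all genes were higher. CDK2, the main kinase target of p21 and p27, read 11.17, 10.63, 10.47 and 9.82 and passed 2-fold at -1.36. CCNE2, a cyclin E gene, was at -1.46 within background. CCNA2, cyclin A of S phase and G2, stood on the other side at 8.55, 9.09, 9.16 and 9.66, a difference of 1.11. In that comparison 10.8% of all genes passed 2-fold. With No.10-3 and low-dose C-30 none of the 7 passed, where 5.68% and 6.17% of all genes did, and the medians were -0.11 and -0.36. Raising the floor to the 75th percentile made the 3 medians 0.33, -0.08 and -0.44, and without a floor -0.19, -0.08 and -0.45.

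Among 12 pocket protein and DREAM complex genes, which repress cell cycle genes, 11 were past the floor with No.10-3. There RB1 alone passed 2-fold, at 1.00, from 7.88 to 8.88, where 5.68% of all genes did. That call was lost under each other scaling, at 0.90 centred on the median, 0.96 centred on the negative controls, 0.91 with quantile normalization and 0.93 with lowess. It differed by -0.07 and 0.73 with C-30 at the low and high dose. None of this list passed against vehicle with C-30, where 6.17% of all genes did at the low and 10.8% at the high dose. E2F5 was lower by -1.10 at the higher than at the lower dose, where 3.57% of all genes passed 2-fold. The value is inexact because the E2F5 signal of 6.43 at the higher dose was within background. Of 6 genes of the E2F family of transcription factors, both activators and repressors, 4 were lower than vehicle at each C-30 dose. Their medians were -0.76 and -0.45 at the low and high dose, against -0.04 and -0.06 over all genes. Only 2 of the 6 were above background on an array of these comparisons. E2F1 and E2F8 alone passed 2-fold, where 6.17% and 10.8% of all genes did, and both were lower. E2F1 differed by -1.17 and -1.01, inexact because it was above background with vehicle alone, and the atypical repressor gene E2F8 by -1.33 and -1.06. At the high dose both fell short of 2-fold when centred on the median, at -0.95 and -0.99. With No.10-3 these genes stood at -0.71 and -0.57.

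Genes of p21 and p27 turnover were 16, all past the floor. UHMK1, the kinase that phosphorylates p27 for export from the nucleus, read 10.73, 11.90, 11.72 and 11.76. It was higher by 1.17, 0.98 and 1.03 and was the only gene of the list past 2-fold, on the arrays of No.10-3 and high-dose C-30. Of all genes 5.68% and 10.8% passed there. The UHMK1 call with high-dose C-30 was lost when arrays were centred on the negative controls, at 0.94. SKP2, the ubiquitin ligase subunit that recognises p27, was picked out after its values were seen and read 10.66, 11.11, 10.51 and 9.87. It was thus highest with No.10-3 and lowest with high-dose C-30, where it differed by -0.79. The medians of the list were 0.17, -0.12 and 0.05 in the comparisons with vehicle, the last becoming -0.04 when centred on the negative controls.

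For transcription of CDKN1A, 11 of 17 listed activators and all 8 listed repressors were past the floor in the comparisons with vehicle. EGR1, an immediate early activator, read 7.53, 8.75, 7.96 and 9.00. It passed 2-fold with No.10-3 at 1.22 and with high-dose C-30 at 1.47, so it was higher on the No.10-3 array where CDKN1A was lower. EGR1 was the only one of the 11 activators to pass in these 2 comparisons, where 5.68% and 10.8% of all genes did. The medians of the activators against vehicle were 0.16, 0.17 and 0.16. The repressor gene BCL6 passed with high-dose C-30 at 1.03, or 0.94 and so short of 2-fold when centred on the negative controls. Between the C-30 doses BCL6 passed at 1.12, where 3.57% of all genes passed. With No.10-3 4 of the 8 repressors were lower than vehicle, and with high-dose C-30 6 were. All 8 were lower with low-dose C-30, where 46.9% of all genes were higher. HDAC2 at -0.06 and BCL6 at -0.09 differed least there. None of the 8 passed 2-fold at that dose, where 6.17% of all genes did, and their median was -0.35 against -0.04. Centred on the negative controls or otherwise rescaled, that median stayed below 0.

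Of 23 listed p53 targets, a list that leaves out the classic target CDKN1A, 16 were past the floor. With high-dose C-30 3 of the 16 were past 2-fold higher, where 4.67% of all genes were, and 0 lower. These were GADD45A at 1.73, DDB2 at 1.04 and RRM2B at 1.16, with the last within background and the others under background with vehicle. Centred on the negative controls, DDB2 stood at 0.95, short of 2-fold. MDM2, a central p53 target picked out after its values were seen, differed by 0.25, 0.08 and 0.50. With low-dose C-30 RRM2B at 1.29 and CCNG1 at 1.11 passed, the first inexact at 7.19 against a vehicle value of 5.91 within background. With No.10-3 RRM2B alone passed, at 1.05 within background. Of all genes, 6.17% passed 2-fold in either direction with low-dose C-30 and 5.68% with No.10-3. The list's median was 0.28 with high-dose C-30 and -0.03 when the floor was raised to the 75th percentile. Between the C-30 doses SESN2 was higher by 1.27 and DDB2 by 1.30, the latter inexact because DDB2 was within background at the low dose, at 6.49.

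FOXO factors are known activators of CDKN1B and are held back by AKT kinases. AKT2 was lower on each treated array, at 10.89, 10.38, 10.00 and 9.02. It was the only one of 5 genes past the floor in that list to pass 2-fold, at -1.87 with high-dose C-30. Of all genes 10.8% passed 2-fold in that comparison. FOXO3, picked out after its values were seen, read 8.56, 8.98, 9.33 and 9.33 and so was higher by 0.42, 0.77 and 0.77. The medians of the list were 0.11, -0.21 and -0.26. With high-dose C-30 4 of the 5 genes were lower, where 46.4% of all genes were higher. The 5 genes are FOXO3, FOXM1 and kinases, so their median has no set direction for CDKN1B. FOXO1 and FOXO4 were within background on all 4 arrays and under the floor. Of 21 listed Polycomb and other regulators of the INK4 locus, 15 were past the floor with C-30. PCGF2, a Polycomb gene, at -1.11 and ID1, an inhibitor of helix-loop-helix factors, at -1.98 passed with high-dose C-30, against 10.8% of all genes. TBX3, a repressor of the locus, was lower by -1.41 at the higher than at the lower dose, while CDKN2A differed by 0.19. The TBX3 value is inexact, as its 6.28 at the higher dose was within background. Among 10 other negative regulators of these kinases, CDKN3, which encodes a phosphatase of CDK2, read 9.47, 10.39, 10.03 and 10.56. It passed 2-fold with high-dose C-30 alone, at 1.09.

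**Figure D4:**
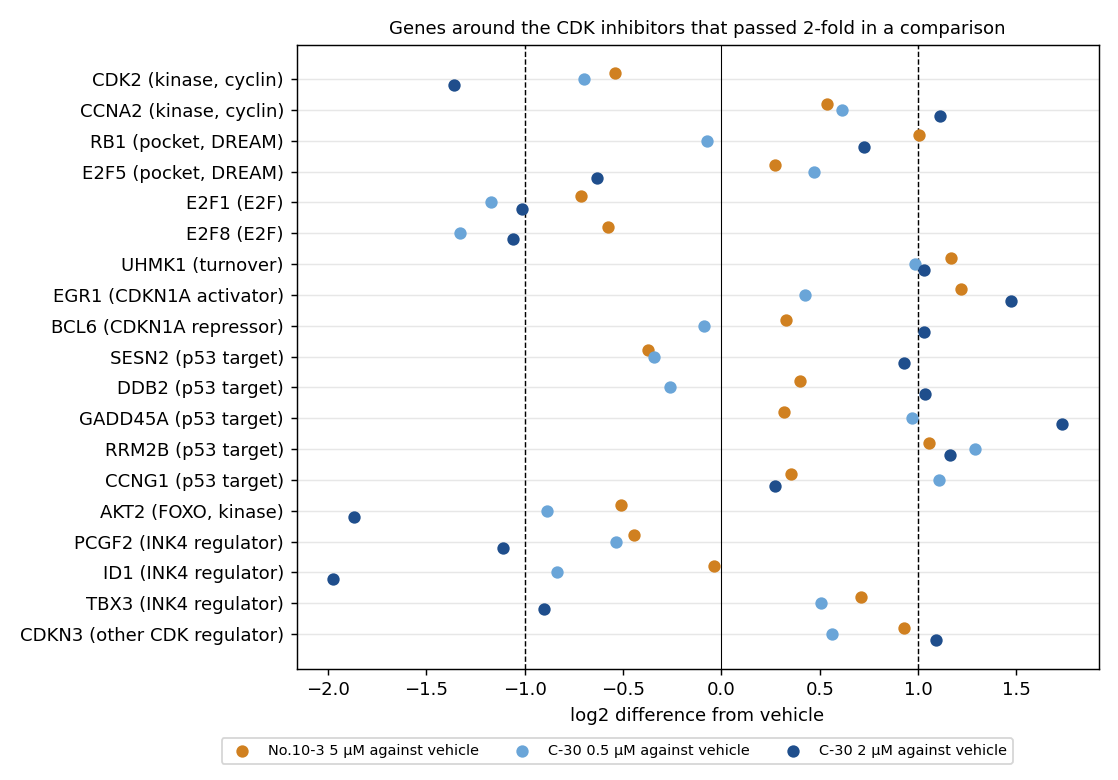
Log2 difference from vehicle (horizontal axis) for the genes of 10 lists around the CDK inhibitors that passed 2-fold in a comparison while above background on at least 1 of its arrays, with dashed lines at 2-fold. AKT2 at -1.87 and ID1 at -1.98 with high-dose C-30 lie farthest to the left and GADD45A at 1.73 farthest to the right.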

How the data were processed

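Biotin was put on total RNA with a kit for whole transcripts, per the labels' protocols. The authors made the deposited log2 signals by RMA in Affymetrix Expression Console 1.3.0, as the submitters' processing notes list. Their base is inferred from the range and from RMA's usual output, and the top named value of 19.66 lies above what scanner readings span, so a fold holds on this scale alone. RMA options and genome build: not given in the sources used here. Symbols came with 17709 of 24351 probe sets and were updated by Entrez identifier, and probe sets of a gene were averaged. Coordinates come from RefSeq on GRCh38.p14. Differences of 2 arrays were taken per gene, as the design has no replicates; the number of arrays limits precision. The 63 ERCC probe sets, of which all but 1 were within background, had a robust SD of 0.126, 0.166 and 0.271 against vehicle with No.10-3 and the lower and higher dose of C-30, and 0.152 between those doses.

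The members and lists were chosen with earlier results of these data known. Named were all members, up to 3 genes per list and comparison past 2-fold and above background, chromosomal neighbours, the 3 nearest profiles and cell type markers; exceptions are stated. Alternatives were a 1.5-fold threshold, no floor, a higher floor (75th percentile, 7.90), quantile normalization, median centring, lowess (fraction 0.3), the brightest probe set, the other deposited table and, added after seeing the data, centring on negative controls. The procedure was tested on simulated data with a chosen noise and added differences well past 2-fold. Smaller differences and the real noise between arrays were not covered by it. Python 3.11.15, numpy 2.4.6, pandas 2.3.3, statsmodels 0.14.6 and matplotlib 3.10.9 were used.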

Additional observations from a re-analysis of the deposited data

How the results depend on the processing

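The differences of the 6 CDK inhibitor genes moved by less than the robust SD of the ERCC probe sets in all 180 combinations of gene, comparison and setting that gave a value. Many of these could not have moved. With 1 probe set per member, the brightest probe set and a changed floor leave a member's difference as it was. The other deposited table differed by at most 5e-05 in any signal. Only the rescalings of the arrays could move these differences. CDKN1B with high-dose C-30 lay between 1.13 and 1.29 and CDKN1A between 0.54 and 0.69. At a threshold of 1.5-fold, 0 of 6 members passed with No.10-3, 1 with low-dose C-30, 3 with high-dose C-30 and 2 between the C-30 doses, while all genes past it were 2131, 2370, 3125 and 1653, where 2-fold gave 524, 572, 1008 and 331. A floor at the 75th percentile kept 3 members and left 253, 309, 586 and 125 genes past 2-fold, since fewer genes were tested. Of genes past 2-fold with No.10-3, 76.7% were higher, against 59.9% when arrays were centred on their median, which moved the median of all genes by -0.10. With low-dose C-30 this share was 55.1%, or 42.9% centred on the negative controls, and with high-dose C-30 it was 43.2%, or 54.7% and 29.2% with these centrings. Of 319 list medians under other settings 19 moved by more than that SD, under a changed floor in each case. The differences of named pathway genes were recomputed under the same settings, a choice made after seeing the data, and the calls this ended are given beside RB1, E2F1, E2F8, UHMK1, BCL6 and DDB2. The cause of the moves under centring was not tested. No paired analysis was possible because each condition has 1 array, and genes within background limit what CDKN1C, CDKN2B and CDKN2D can show.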
